A study of Homo sapiens with 4 samples.

Results

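The 10 heat-shock chaperone genes described here are HSPA1A, HSPA1B, HSPA8, HSP90AA1, HSP90AB1, HSPB1, HSPD1, HSPE1, DNAJB1 and HSPH1. They were chosen by symbol, and all 10 were found among the 44591 genes of the deposited tables. The libraries are labelled HepG2, a line grown from a human liver cancer, and were made 24 h after serum was returned to cells that had spent 6 h without serum from the time of transfection. Cells received either siNC, a control siRNA, or siLINC01186, an siRNA against the long non-coding RNA LINC01186 (SALIS), and each group had 2 libraries, numbered replicate 1 and replicate 2. As the study describes them, these were biological repeats with the same siNC and different oligos against LINC01186. All libraries therefore share transfection, serum withdrawal and poly(A) selection, and no untransfected library was analysed here.

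Heat-shock proteins are chaperones that bind unfolded or newly made proteins and help them fold, stay soluble or be degraded. HSP70 proteins such as HSPA8 and HSPA1A grip short hydrophobic stretches in a cycle driven by ATP, J-domain proteins such as DNAJB1 deliver clients and start ATP hydrolysis, and HSPH1 acts as a nucleotide exchange factor that releases the client. HSP90 proteins act later, on kinases, steroid receptors and other nearly folded clients, HSPB1 is a small heat-shock protein that holds unfolded proteins without ATP, and HSPD1 and HSPE1 form the chaperonin chamber and lid of mitochondria. HSF1, the main heat-shock transcription factor, binds DNA as a trimer at inverted repeats of the block GAA, called heat-shock elements, and several of these genes are among its best-known targets.

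The stretches of promoter that hold such an element are shown because several of these genes are known HSF1 targets. The genes themselves were chosen by symbol, not by this control. RefSeq windows of GRCh38.p14 from 250 bases before to 50 bases after each start were searched for 2 facing blocks, GAANNTTC or TTCNNGAA, each of which reads the same on both strands. All 10 genes matched the RefSeq table, and capitals mark the matched bases, each line running 5′ to 3′ on the gene's strand.
HSPA8 (chr11:123062339-123062381, minus strand): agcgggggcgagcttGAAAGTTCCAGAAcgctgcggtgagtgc
HSPA8 (chr11:123062164-123062206, minus strand): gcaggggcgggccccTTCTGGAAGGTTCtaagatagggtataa
HSPA1A (chr6:31815422-31815459, plus strand): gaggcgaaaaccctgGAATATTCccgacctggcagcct
HSPA1B (chr6:31827618-31827655, plus strand): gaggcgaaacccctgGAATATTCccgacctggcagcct
DNAJB1 (chr19:14518422-14518489, minus strand): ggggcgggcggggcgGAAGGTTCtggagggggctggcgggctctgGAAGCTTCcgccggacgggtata
HSP90AA1 (chr14:102087090-102087147, minus strand): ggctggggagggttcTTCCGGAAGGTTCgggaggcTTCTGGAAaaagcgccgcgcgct
HSP90AB1 (chr6:44247763-44247805, plus strand): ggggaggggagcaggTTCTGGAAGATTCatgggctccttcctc
HSP90AB1 (chr6:44247816-44247858, plus strand): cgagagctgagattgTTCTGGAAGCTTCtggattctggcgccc
HSPB1 (chr7:76302476-76302513, plus strand): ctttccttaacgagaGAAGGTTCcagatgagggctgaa
HSPD1 (chr2:197500053-197500090, minus strand): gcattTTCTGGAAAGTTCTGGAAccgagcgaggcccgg

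A facing pair was found in the windows of 8 of the 10 genes, against 16.2% of the 27305 genes with a RefSeq window. A run of 3 alternating blocks, in which both kinds of pair overlap, was found in 4 of the 10 genes (HSPA8, HSP90AA1, HSP90AB1 and HSPD1), against 0.608% of all genes. In HSPA8 the runs lay at positions -230 to -218 and -55 to -43 from the start. HSPD1 held the longest run, of 18 bases, and the HSPA1A and HSPA1B windows shared one element in nearly the same place, at -106 and -105. The windows of HSPE1 and HSPH1 held neither set of letters, which says nothing of bases outside them. The HSPD1 run, at chr2:197500068-197500085, lies just outside the HSPE1 window, which begins at chr2:197500129. DNAJB1 held a further match in the window of another of its 3 listed starts, just inside the transcribed part.

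**Figure D1:**
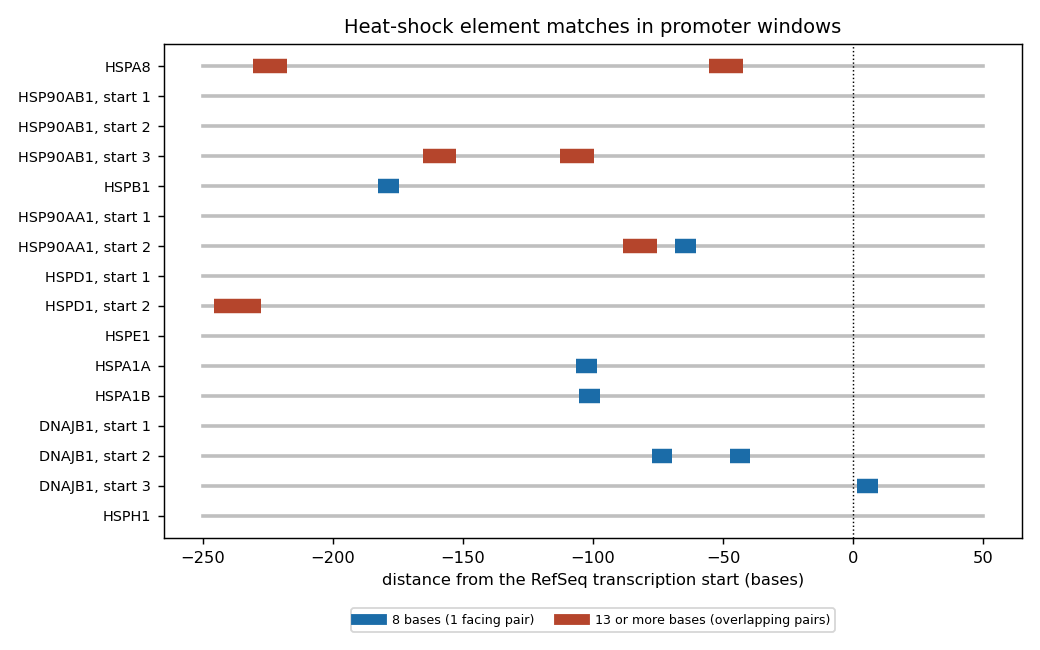
Positions of heat-shock element matches in the promoter windows of the 10 genes, 1 grey line per RefSeq start, with the x axis in bases from the start (0). Blue blocks are single facing pairs of 8 bases and red blocks are overlapping pairs of 13 bases or more, which appear in HSPA8, HSP90AB1, HSP90AA1 and HSPD1.

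The library totals were 14968958 to 17297245 counts. A sum of at least 5 counts over the 4 libraries was required for testing, and 23942 genes met it, all 10 chaperone genes included. LINC01186, the target, had 15 and 14 counts with siNC, and 12 and 14 where the label reads siLINC01186, so no fall was detectable at this depth (log2 fold change -0.12, SE 0.53, edgeR's quasi-likelihood test, unadjusted p = 0.831). By qPCR, the study reported lower SALIS in HepG2 cells after knockdown. The liver label was checked with 16 hepatocyte genes, and 3 of them exceeded 3 counts in every library. Albumin (ALB) had 0 counts in both replicate 1 libraries and 15 and 14 in replicate 2, and the apolipoprotein APOA1 had 0 in both replicate 1 libraries and 21 and 20 in replicate 2. The defining genes of hepatocytes and of HepG2 were thus at or near 0, against the label, in all 4 libraries. The study's supplement gives a DNA (STR) profile of its HepG2 cells that fully matched a reference HepG2 line. Whether the sequenced cells came from the profiled stock is not stated. Replicates of each group differed by more than counting error, as their chi-square over genes, divided by the number of genes, was 20.8 for siNC and 24.0 for siLINC01186.

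Levels between genes were compared per length, in the authors' TPM, over the 2 siNC libraries. HSPA8, the constitutive cytosolic HSP70, was the most abundant at a mean of 1695 TPM (SD 764, n = 2). HSP90AB1, the constitutive HSP90, followed at 1445 TPM, HSPB1 at 1386 TPM, and HSP90AA1, the stress-inducible HSP90, at 1027 TPM. HSPD1 stood at 510 TPM, HSPE1 at 201 TPM, HSPA1A at 199 TPM, HSPA1B at 190 TPM, DNAJB1 at 112 TPM and HSPH1 at 85.6 TPM. Among neighbours in this order, the siNC ranges overlapped between HSPA8 and HSP90AB1, HSP90AB1 and HSPB1, HSPE1 and HSPA1A, HSPA1A and HSPA1B, and DNAJB1 and HSPH1. The ranges thus did not resolve the order within those pairs. Genes further apart overlapped too: HSPA8 (1154 to 2235 TPM) with HSPB1, HSPA8 and HSP90AB1 with HSP90AA1 (801 to 1253 TPM), and HSPE1 with HSPA1B. Compared within the same library, HSPA8 and HSP90AB1 stood above HSP90AA1 in both siNC libraries. HSPE1 and HSPA1A likewise stood above HSPA1B in both. DNAJB1 ranked 9 and HSPH1 ranked 10 in each siNC library taken alone. All 10 genes held their rank in siNC replicate 1 taken alone, but 6 did in siNC replicate 2, where HSPB1 ranked 1 and HSPA8 ranked 3. Together the 10 genes took 0.912% of all counts in siNC replicate 1 and 0.977% in siLINC01186 replicate 1, but 0.629% and 0.685% in the replicate 2 libraries of the same groups.

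The HSP70 genes were followed across the libraries in CPM, counts scaled to a common library total after TMM normalization. HSPA8 measured 2534 CPM in siNC replicate 1 and 2786 CPM in siLINC01186 replicate 1, against 1293 CPM and 1393 CPM in the matching replicate 2 libraries. Both replicate 2 libraries were thus far below both replicate 1 libraries, while the treated and control values lay side by side within each number. HSPA1A, the classical heat-inducible HSP70, measured 249 CPM in siNC and 290 CPM in siLINC01186 for replicate 1, and 195 CPM and 166 CPM for replicate 2. HSPA1B, its near-identical neighbour in the same gene cluster, measured 245 CPM and 288 CPM for replicate 1, and 195 CPM and 198 CPM for replicate 2. The lowest library of HSPA1A was siLINC01186 replicate 2, and that of HSPA1B was siNC replicate 2.

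HSPA1A and HSPA1B have to be read together. In the GENCODE release 29 transcripts, 63.2% of the 150-nt windows of HSPA1A, the length of a read, were also present in HSPA1B. The ratio of HSPA1A to HSPA1B counts was 1.02, 1.01 and 1.00 in siNC replicate 1, siLINC01186 replicate 1 and siNC replicate 2, and 0.836 in siLINC01186 replicate 2. In siNC replicate 2 both genes were listed with 3143 counts. The sum of both genes was 8273 and 8259 counts in the siNC and siLINC01186 libraries of replicate 1, and 6286 and 6470 counts in those of replicate 2. How reads shared by both copies were assigned is not given in the sources used here, so the separate values of these genes are uncertain. Their sum avoids the split between the copies, but shared reads could be missing from it or counted in both.

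In the partners of HSP70 too, both replicate 2 libraries lay below both replicate 1 libraries. DNAJB1, the J-domain protein most strongly tied to the heat-shock response, measured 178 CPM in siNC and 164 CPM in siLINC01186 for replicate 1, and 119 CPM and 129 CPM for replicate 2. HSPH1 measured 248 CPM and 268 CPM for replicate 1, and 201 CPM and 196 CPM for replicate 2. In both genes the replicate 1 values were the higher pair, with siNC and siLINC01186 changing places between the numbers.

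HSP90AA1 measured 2353 CPM in siNC and 2711 CPM in siLINC01186 for replicate 1, and 1485 CPM and 1672 CPM for replicate 2. HSP90AB1 measured 2248 CPM and 2212 CPM for replicate 1, and 1589 CPM and 1556 CPM for replicate 2. The inducible and the constitutive HSP90 thus had the same order of replicates, with the wider gap in the inducible one. The difference between these genes' gaps was not tested.

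HSPB1 differed least between the replicates among the 10 genes. It measured 577 CPM in siNC and 661 CPM in siLINC01186 for replicate 1, and 562 CPM and 565 CPM for replicate 2, so that 3 of the 4 libraries lay close together and siLINC01186 replicate 1 stood above them. Of the mitochondrial pair, HSPD1 measured 690 CPM and 757 CPM for replicate 1, and 449 CPM and 518 CPM for replicate 2. HSPE1 measured 99.4 CPM and 92.5 CPM for replicate 1, and 76.1 CPM and 77.7 CPM for replicate 2. HSPD1 and HSPE1 are divergent neighbours that share a promoter region, and their annotated spans in the tables (hg19) overlap by 278 bases at chr2:198364721-198364998. The library kit named in the study's methods does not mark strand, so reads in that overlap cannot be assigned by strand. The readthrough gene HSPE1-MOB4, annotated from HSPE1 into the next gene, was counted separately at 48.1% to 53.4% of the HSPE1 count, which makes the HSPE1 level uncertain as well. Processed pseudogenes of the 10 genes held few reads, at most 1.14% of the parent count for HSPE1 and at most 0.373% for any other.

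**Figure D2:**
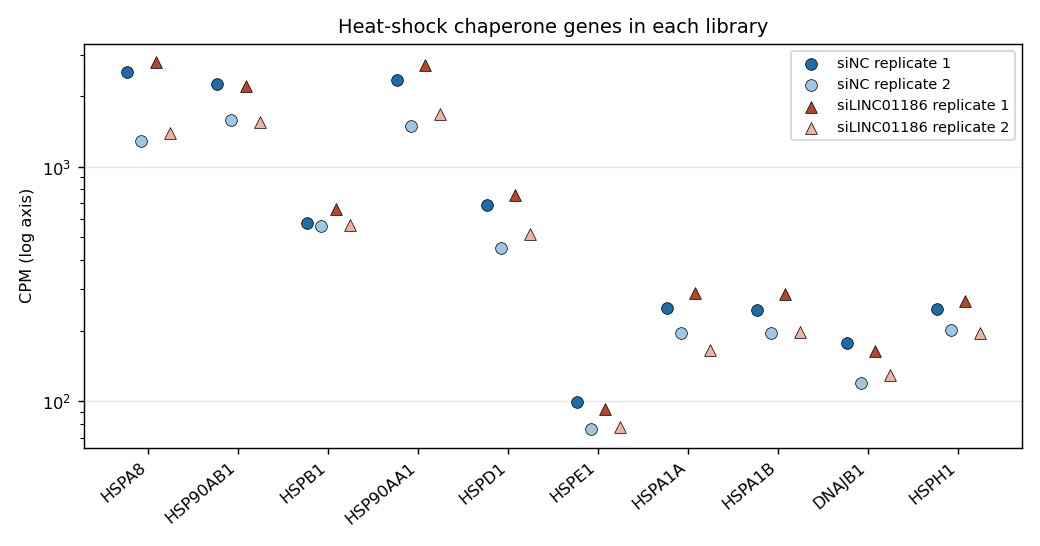
CPM (log axis) of the 10 chaperone genes in each of the 4 libraries, ordered by mean TPM in siNC, with circles for siNC, triangles for siLINC01186, dark colours for replicate 1 and pale colours for replicate 2. In all 10 genes both pale points lie below both dark points, as for HSPA8 with 1293 CPM and 1393 CPM below 2534 CPM and 2786 CPM.

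The first comparison asked whether the siRNA against LINC01186 changed the chaperone genes. None of the 10 passed an adjusted p of 0.05 in edgeR's quasi-likelihood test (adjusted p = 1.00 for each), where 0% of the 23942 genes passed. At looser limits, an unadjusted p under 0.05 and a change of more than 1 on the log2 scale, again 0 of 10 passed, against 0.756% of all genes. With an unadjusted p under 0.05 alone there were, in this fit with group as its only term, 0 of 10 chaperone genes and 289 of all genes, and DESeq2 called none of the 10. The siNC and siLINC01186 libraries overlapped in all 10 genes, where 26% of all genes, whatever their level, did not overlap.

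The fitted fold changes were small beside their errors. The highest was HSP90AA1 with a log2 fold change of 0.19 (SE 0.29), followed by HSPD1 with 0.16 (SE 0.26). HSPA8 had 0.13 with the widest error (SE 0.37), and HSPE1 had the lowest value of -0.04 (SE 0.21). The median over the 10 genes was 0.08, and over all genes 0.00. These errors hold the gap between replicates within each group, and a test that misses the threshold does not show that the chaperone genes were equal. Leaving out 1 library gave the groups unequal shares of the replicate numbers, in fits with group as their only term. Those values mix the siRNA with the gap between replicates, in which replicate 2 was lower in all 10 genes. They do not measure how steady the siRNA result was. All 10 values were above 0 without siNC replicate 1 (median 0.27) or without siLINC01186 replicate 2 (median 0.31). All 10 were below 0 without siLINC01186 replicate 1 (median -0.20), and 9 were below 0 without siNC replicate 2 (median -0.12). No chaperone gene passed an adjusted p of 0.05 in any of these fits.

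**Figure D3:**
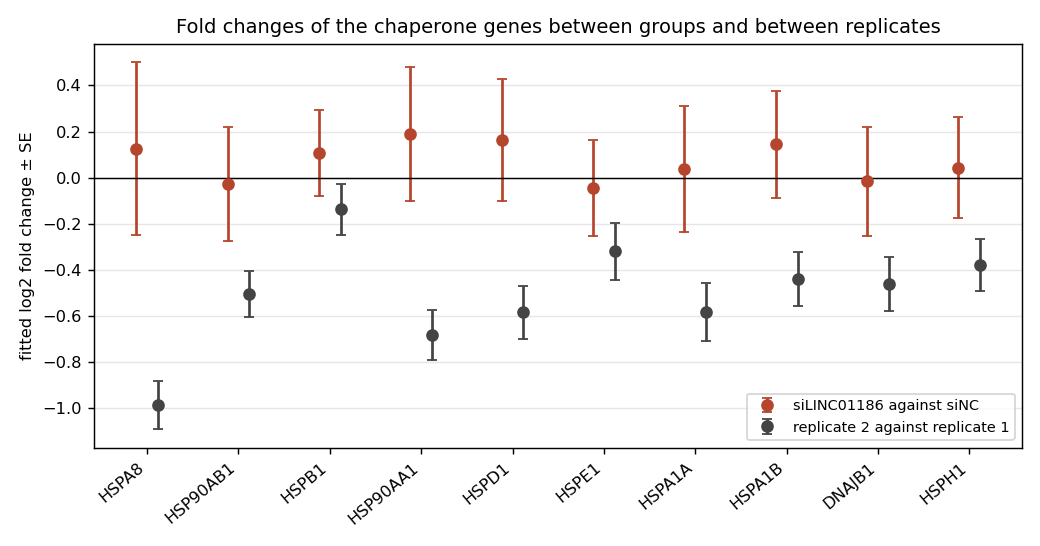
Fitted log2 fold changes with standard errors for the 10 chaperone genes, with siLINC01186 against siNC in red and replicate 2 against replicate 1 in grey. The red points lie between -0.04 and 0.19 with bars that cross 0, and the grey points lie between -0.99 and -0.14.

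Within each replicate number there is 1 library a side and so no test. For replicate 1, siLINC01186 minus siNC ranged from -0.11 to 0.23 in log2 CPM, and none of the 10 genes moved beyond 0.5, where 27% of all genes did. For replicate 2 the range was -0.23 to 0.21, again with none beyond 0.5, where 27.5% of all genes did. HSP90AA1 was higher under siLINC01186 by 0.20 and 0.17 for replicates 1 and 2, HSPD1 by 0.13 and 0.21, and HSPA8 by 0.14 and 0.11, while HSP90AB1 was at -0.02 and -0.03. HSPA1A was at 0.22 in one number and -0.23 in the other. In replicate 1 the signs rest on the scale: 7 of 10 genes were above 0 in CPM and 0 of 10 in the deposited TPM, where the median of all genes was -0.18. One row, the small RNA gene MIR6087, took 13.8% of the TPM in siLINC01186 replicate 1 and 8.69% in siLINC01186 replicate 2, but 1.16% and 1.91% in the siNC libraries. For replicate 2, 7 of 10 genes were above 0 in CPM and 4 of 10 in TPM, where the median of all genes was -0.05.

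**Figure D4:**
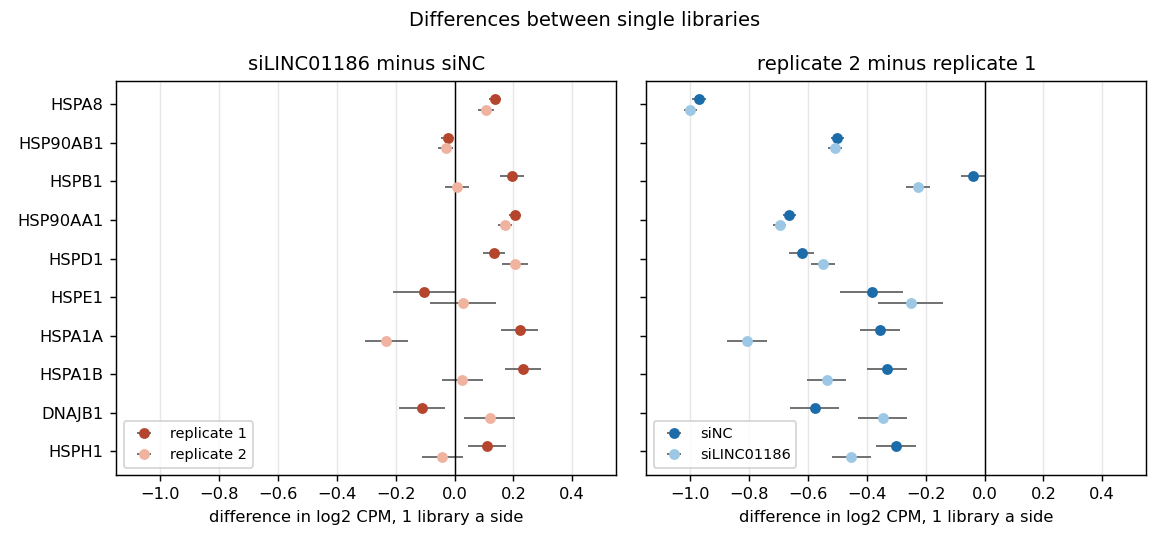
Differences in log2 CPM between single libraries for the 10 genes, with siLINC01186 minus siNC in the left panel (1 colour per replicate number) and replicate 2 minus replicate 1 in the right panel (1 colour per group). Bars are exact 95% intervals that cover counting error only, and the left panel spans -0.23 to 0.23 while the right panel spans -1.0 to -0.04.

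The second comparison set replicate 2 against replicate 1 over both groups. Each number pooled a siNC and a siLINC01186 library, and the errors hold the gap between those libraries. The p-values therefore do not measure a spread between repeats of the same number. In 8 of the 10 genes the level was lower in replicate 2 at an adjusted p under 0.05 in edgeR, where 4.57% of all genes were. Among the 2809 genes at or above the lowest mean level of the 10, 86.4 CPM, the share was 16.6%. Both replicate 2 libraries lay below both replicate 1 libraries in CPM in 10 of 10 genes, against 25.6% of all genes, whatever their level. For HSPB1 this rests on TMM: its difference between the siNC libraries was -0.04 in log2 CPM and turned to 0.037 with plain library totals. The median log2 fold change over the 10 genes was -0.48, over all genes 0.02 and over genes of at least that level -0.15. None of the 10 passed the log2 and unadjusted limits given above, where 1.52% of all genes did in this direction.

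HSPA8 fell most, by 0.99 on the log2 scale (SE 0.10, adjusted p = 9.43e-05 in edgeR), so that its replicate 1 level was 1.98 times that of replicate 2. HSP90AA1 fell by 0.68 (SE 0.11, adjusted p = 0.00163), and HSPD1 and HSPA1A fell by 0.58 each (adjusted p = 0.00582 and 0.00925). HSP90AB1 fell by 0.50 (adjusted p = 0.00565), DNAJB1 by 0.46 (adjusted p = 0.0228), HSPA1B by 0.44 (adjusted p = 0.0293) and HSPH1 by 0.38 (adjusted p = 0.0463). With the listed counts of HSPA1A and HSPA1B summed, the pair fell by 0.51 (SE 0.12, adjusted p = 0.0124 in edgeR). HSPE1 had -0.32 (SE 0.12, adjusted p = 0.120) and HSPB1 -0.14 (SE 0.11, adjusted p = 0.512), and neither passed. Of the 8 genes that passed, 7 held a facing pair of blocks in their promoter window, near the share of 8 in all 10 genes. HSPH1 passed without a pair, HSPB1 held one and did not pass, and HSPE1 neither held one nor passed. A link between the pairs and the replicate difference was not tested.

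The replicate difference was present in each group taken alone. Between the siNC libraries it ranged from -0.97 (HSPA8) to -0.04 (HSPB1) in log2 CPM, with 5 of 10 genes lower by more than 0.5, where 15.7% of all genes were. Between the libraries labelled siLINC01186 it ranged from -1.0 (HSPA8) to -0.23 (HSPB1), with 6 of 10 lower by more than 0.5, where 16.6% of all genes were. Both shares are over all tested genes, whatever their level. HSPA8, HSP90AA1 and HSP90AB1 had nearly the same difference in both groups. HSPA1A differed more between the siLINC01186 libraries (-0.81) than between the siNC libraries (-0.35), and DNAJB1 less (-0.35 against -0.58).

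How many of the 10 genes passed depended on the scale and on 1 library. With plain library totals in place of TMM 5 of 10 passed, with HSPA1B, DNAJB1 and HSPH1 lost, and all 10 fitted values stayed below 0; over all genes the split of higher against lower calls was 1064 to 1094 with TMM and 1508 to 554 with plain totals. Without siLINC01186 replicate 1, 4 of 10 passed (HSPA8, HSP90AA1, HSP90AB1 and HSPD1). The replicates had other differences as well: the summed level of the 16 hepatocyte genes was 8.62 and 9.0 TPM in replicate 1 and 20.2 and 16.9 TPM in replicate 2. The 7 fibroblast genes, all above 3 counts in every library, summed to 22.3 and 17.4 TPM in replicate 1 and 35.4 and 33.7 TPM in replicate 2. Of the 6 leukocyte genes 2 exceeded 3 counts in every library (3.96 to 9.36 TPM summed, CD3E at 0), and of the 5 endothelial genes also 2 (0.803 to 1.89 TPM summed, KDR at 0). The part of these differences in the chaperone result was not tested. In bulk RNA a smaller share of cells with a high level and less RNA per cell cannot be told apart. In the libraries labelled siLINC01186 the oligo changed with the replicate number, so both cannot be told apart there.

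Other chaperone genes were read in the same way, from lists written from general knowledge of these families. No gene of these lists passed an adjusted p of 0.05 for siLINC01186 against siNC. For replicate 2 against replicate 1, 21 of 103 tested genes passed as lower and 3 as higher, with a median log2 fold change of -0.22. The counts of lower genes here and in the lists below stand against 4.57% of all genes and 16.6% of genes at or above the lowest level of the 10, and nothing particular to a list is read from them. The other HSP70 and HSP110 genes had 2 of 12 lower, HSPA5 of the endoplasmic reticulum (-0.48, adjusted p = 0.00791) and HSPA9 of mitochondria (-0.45, adjusted p = 0.0165), and 1 higher, the testis-enriched HSPA2 (0.79, adjusted p = 0.0256). HSPA6, an HSP70 gene that is nearly silent without stress, had 52, 21, 9 and 27 counts in siNC replicate 1, siLINC01186 replicate 1, siNC replicate 2 and siLINC01186 replicate 2, and did not pass (adjusted p = 0.142).

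Among the other J-domain genes 4 of 20 were lower, including DNAJA1 (-0.62) and DNAJB11 (-0.48), and 1 was higher. The nucleotide exchange factors and BAG proteins had 2 of 10 lower, BAG3 (-0.55, adjusted p = 0.0124), a partner of HSP70 in autophagy, and BAG2 (-0.52, adjusted p = 0.0169). Of the other HSP90 proteins and co-chaperones 4 of 16 were lower, including FKBP4 (-0.60), NUDC (-0.63) and STIP1 (-0.47), the adaptor that links HSP70 to HSP90. CDC37, the co-chaperone for kinases, had -0.27, AHSA1, an activator of the HSP90 ATPase, -0.37, and HSP90B1 and TRAP1, the HSP90 proteins of the endoplasmic reticulum and of mitochondria, -0.27 and -0.18, and none of these 4 passed. The CCT chaperonin, which folds actin and tubulin, and its partner prefoldin had 6 of 14 lower, all of them CCT subunits, with CCT2 (-0.62) and CCT5 (-0.57) having the smallest p.

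The regulators of the heat-shock response were read next. HSF1 itself was lower (-0.40, adjusted p = 0.0433), with 146 CPM and 157 CPM in siNC and siLINC01186 replicate 1 and 116 CPM and 114 CPM in replicate 2, and HSF4 was lower as well (-0.63, adjusted p = 0.0144). HSF2 had 0.12 and did not pass. Of 12 other genes known to be induced by HSF1, 1 was lower, CACYBP (-0.65), and 1 was higher, HMOX1 (0.70, adjusted p = 0.0164), which codes for the heme-degrading enzyme of the oxidative stress response. The mitochondrial unfolded protein response list had 0 of 8 lower and 0 higher. None of the 6 tested small heat-shock genes passed, and CRYAB, a small heat-shock protein of lens and muscle, had 2 to 7 counts in a library.

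**Figure D5:**
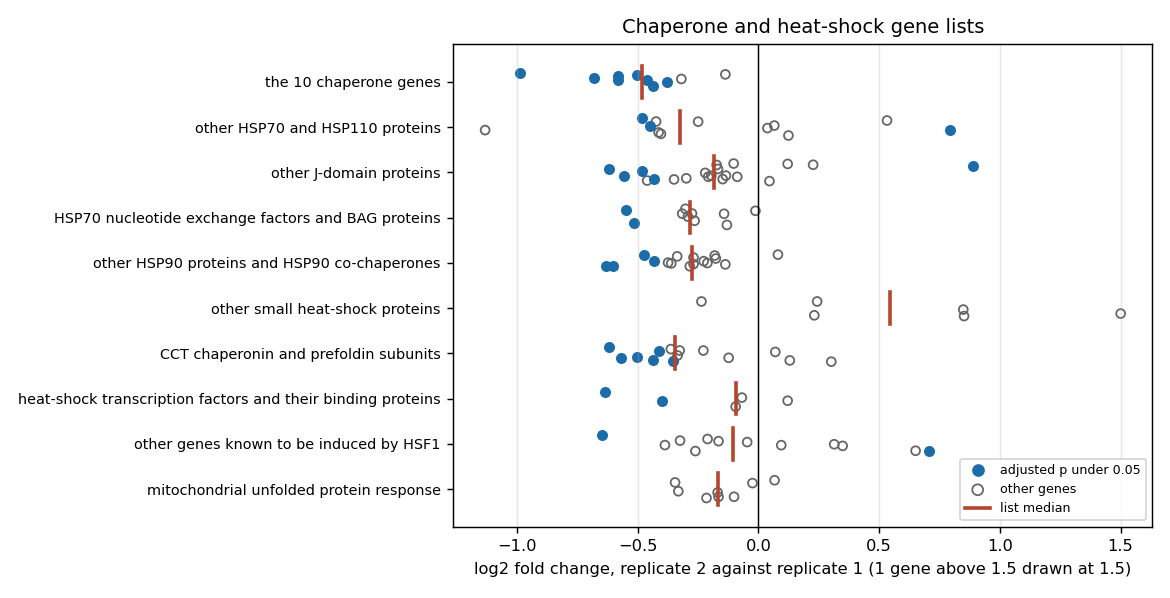
Log2 fold changes of replicate 2 against replicate 1 for the 10 chaperone genes and 9 further lists, 1 point per tested gene, filled where the adjusted p was under 0.05, with a red bar at each list median. The median of the 10 genes is -0.48, that of the CCT and prefoldin list -0.35, and the other small heat-shock genes lie mostly above 0 with none filled.

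The profile over the 4 libraries was not confined to chaperones. The median centred log2 CPM of HSPA1A, HSPA1B, DNAJB1 and HSPH1 spanned 0.50, and among 4651 genes outside the lists with a mean of at least 50 CPM, the nearest by Euclidean distance were COPS6 (0.0198), ATG3 (0.0248), PHB2 (0.0307), NAA10 (0.0371) and GPS2 (0.0400). Within a distance of 0.1 there were 112 genes. COPS6, a subunit of the COP9 signalosome, measured 215 CPM and 235 CPM in siNC and siLINC01186 for replicate 1 and 168 CPM and 166 CPM for replicate 2, much like HSPH1.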

How the data were processed

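For each of the 4 libraries the authors deposited raw counts for each gene and TPM values, which are those counts divided by gene length and scaled per library. Per the labels the submitters' processing notes name hg19, HISAT2, HISAT, TopHat2 and Bowtie2, but their roles and the counting program are not given in the sources used here. Sample titles and treatments gave the groups and the replicate numbers.

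Genes with at least 5 summed counts were normalized by TMM and tested with edgeR 4.0.16 (quasi-likelihood, 1 term for group or for replicate number, R 4.3.3), with Benjamini-Hochberg adjustment over 23942 genes. Log2 CPM used a prior count of 2. DESeq2 1.42.0 and other normalizations, filters, sums of copies, a replicate block and leaving out each library were alternatives. With 2 libraries per group the p-values measure only the spread between these libraries. The self-test used simulated counts. The 10 genes, the lists and the tests were chosen with earlier results of these data known. Named genes were the 10, 12 regulators and partners fixed by symbol, the 2 with the smallest p per list and contrast, and the 5 nearest profiles. The marker genes were also fixed by symbol, and those printed singly were picked after their values were seen; values of some marker genes are not reported here. An exact 95% interval from single libraries covers counting error only.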

Additional observations from a re-analysis of the deposited data

Results flagged for a closer look

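In 4 of the 10 genes siLINC01186 lay on opposite sides of siNC for the 2 replicate numbers, with 1 library a side, and the difference was not tested. The siLINC01186 minus siNC difference for replicate 2 less that for replicate 1, in log2 CPM, was -0.45 for HSPA1A, 0.13 for HSPE1, 0.23 for DNAJB1 and -0.15 for HSPH1. For HSPA1A the split of reads with HSPA1B was also unlike that of the other libraries, at a ratio of 0.836.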

How the results depend on the processing

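For siLINC01186 against siNC no alternative called any of the 10 genes. The genes called higher among all genes were 1 with DESeq2's Wald test, 4 with at least 1 count in any library (and 1 lower) and 0 to 6 when 1 library was left out. The genes past the log2 and unadjusted limits were 27 with DESeq2, 46 with edgeR's expression filter and 248 to 375 when 1 library was left out. DNAJB1 turned to 0.00091 with plain library totals. Fits with 1 library left out mix the siRNA with the gap between replicates, as described above. When 1 library was left out, the log2 fold changes ranged from -0.42 to 0.38 for HSPA1A, -0.15 to 0.38 for HSPA1B, -0.46 to 0.69 for HSPA8, -0.20 to 0.56 for HSP90AA1, -0.30 to 0.25 for HSP90AB1, -0.011 to 0.21 for HSPB1, -0.14 to 0.51 for HSPD1, -0.22 to 0.16 for HSPE1, -0.27 to 0.30 for DNAJB1 and -0.20 to 0.25 for HSPH1.

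For replicate 2 against replicate 1, plain library totals gave 554 genes lower and 5 of the 10 chaperone genes, and DESeq2's Wald test gave 626 genes higher and 655 past the limits. Leaving out 1 library gave 653 to 1577 genes higher, 641 to 1755 lower, 4 to 8 of the chaperone genes lower and 0 to 1 past the limits (HSPA8). Chaperone genes beyond 0.5 in single-library differences fell from 5 to 3 between the siNC libraries with plain totals, and from 6 to 3 between the siLINC01186 libraries with plain totals or TPM. The order by TPM held for 6 of 10 genes in siNC replicate 2 alone.

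The labels do not say what a replicate number shares. Taken as distances from the mean of each group, libraries with the same number correlated at 0.324 over 23942 genes. With the replicate block, 83 genes were higher and 195 lower for siLINC01186, none of them among the 10. HSP90AA1 had a log2 fold change of 0.19 in that fit (SE 0.077, unadjusted p = 0.0152, adjusted p = 0.361 in edgeR), the 1 chaperone gene with an unadjusted p under 0.05. The block also moved HSPA1A and DNAJB1 across 0, to -0.0042 and 0.0029. With group as a second term in the replicate contrast, also a replicate block fit, 1905 genes were higher and 2286 lower, and 9 of the 10 chaperone genes passed, HSPE1 included (adjusted p = 0.0451 in edgeR). The replicate block takes the gap between replicate numbers out of the error for siLINC01186 against siNC. In the main fit the SE of HSP90AA1 was 0.29, at the same fold change of 0.19. HSPA8 had 0.13 (SE 0.37) in the main fit and 0.12 (SE 0.078) with the block. What moved the other calls was not tested. With 2 libraries per group the design limits what can be called for genes whose replicates differ.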
